A study of Homo sapiens with 3 samples.

Results

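The endogenous miRNAs of cells made to express miR-122 were compared with those of cells that carried the same vector without a hairpin. The members were chosen from the table of estimated counts per mature miRNA: counts were summed over hairpins, the synthetic hairpins and both arms of miR-3591 were set aside, and every miRNA that averaged 10 counts or more in the pair of libraries was kept. This left 514 endogenous miRNAs of 1247 with any count in either library, fractions of a read included, and of 2578 listed. The choice used the mean count and not the difference between the libraries. Of those kept, 23 had under 10 counts in the empty vector library and passed only through the miR-122 library. Another 22 had under 10 in the miR-122 library and passed only through the empty vector library. The kept miRNA with the lowest mean had 10 counts and the most abundant one left out had 9.5.

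Small RNA was sequenced from HEK293 cells, a line from human embryonic kidney, in the Flp-In T-REx 293 form that has a recombination site and a tetracycline repressor. Both lines were transduced with a lentiviral cassette that encoded GFP under a doxycycline-inducible promoter together with neomycin resistance, and in the miR-122 line an artificial hairpin with the miR-122 sequence lay in an intron ahead of the GFP frame. Both lines were selected with Geneticin at 1 mg/mL for 6 days and then received doxycycline at 1 ug/mL for 7 days, so the drug and the vector were shared and the hairpin was not. Libraries were prepared from 1000 ng of total RNA, with 1 library per group, and a library from a miR-1 line treated in the same way is set beside them for some values. With 1 library on each side there was no replicate check. Every interval below is a 95% interval for counting error only, and reads without molecular identifiers are not independent molecules. Endogenous miRNAs had 1636480 counts in the empty vector library and 1945888 in the miR-122 library, of which the kept miRNAs held 99.9% in both.

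A miRNA is cut from a hairpin in the nucleus by Drosha and in the cytoplasm by Dicer, which leaves a duplex of a 5p and a 3p arm. One arm is usually kept in an Argonaute protein and pairs with target mRNAs mainly through its seed, bases 2 to 8. miRNAs with the same seed form a family, and hairpins cut from one transcript form a cluster. miR-122 is the dominant miRNA of hepatocytes, is known for its part in cholesterol and fatty acid metabolism and in hepatitis C virus replication, and is scarce outside the liver.

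The mature sequences are shown 5′ to 3′ as RefSeq gives them (GRCh38.p14), with the seed in capitals. Of the 514 kept miRNAs, 452 were matched to a sequence there. The natural arms of miR-122 are shown first, because this seed is what the line added.
miR-122-5p: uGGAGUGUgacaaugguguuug
miR-122-3p: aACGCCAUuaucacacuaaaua

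The miRNAs with the lowest ratios among miRNAs averaging 100 counts or more had 3 different seeds, and miR-590-3p holds 19.0% G and C. Those with the highest ratios are shown after them.
miR-210-3p: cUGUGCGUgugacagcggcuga
miR-33a-5p: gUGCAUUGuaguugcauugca
miR-590-3p: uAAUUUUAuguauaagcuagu
miR-1268a: cGGGCGUGgugguggggg
miR-1268b: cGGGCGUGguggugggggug
miR-4473: cUAGUGCUcuccguuacaagua
miR-548o-3p: cCAAAACUgcaguuacuuuugc

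The arms of the miR-17-92 cluster are shown because its members did not move together. They carry 4 seeds, and miR-92a-3p shares its seed with miR-25-3p and miR-32-5p of other loci.
miR-17-5p: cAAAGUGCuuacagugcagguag
miR-20a-5p: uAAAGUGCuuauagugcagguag
miR-18a-5p: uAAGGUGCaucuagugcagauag
miR-19a-3p: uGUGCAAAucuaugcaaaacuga
miR-19b-3p: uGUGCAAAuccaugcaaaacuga
miR-92a-3p: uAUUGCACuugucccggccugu
miR-25-3p: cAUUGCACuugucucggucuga
miR-32-5p: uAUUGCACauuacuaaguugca

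The families of miR-29, of miR-148 and miR-152, and of miR-99/100 are shown because members with the same seed, had unlike ratios: miR-29a-3p differs from miR-29c-3p at 1 position, and miR-148a-3p from miR-148b-3p at 2.
miR-29a-3p: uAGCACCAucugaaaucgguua
miR-29b-3p: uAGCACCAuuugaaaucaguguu
miR-29c-3p: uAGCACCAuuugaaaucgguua
miR-148a-3p: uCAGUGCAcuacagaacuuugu
miR-148b-3p: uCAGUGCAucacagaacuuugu
miR-152-3p: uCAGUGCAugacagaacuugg
miR-99a-5p: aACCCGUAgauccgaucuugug
miR-99b-5p: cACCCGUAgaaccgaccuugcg
miR-100-5p: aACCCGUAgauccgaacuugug

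miR-122-5p had 627576 counts in the miR-122 library and 10 in the empty vector library. It therefore made up 24.35% of all miRNA counts in its own line (Wilson interval 24.30% to 24.40%). On the count scale, which does not correct for ligation efficiency, it was 2.18 times as abundant there as the most abundant endogenous miRNA, and the summed counts of the 4 most abundant endogenous miRNAs were needed to exceed it. One miR-122-5p count was present for every 3.10 endogenous counts. The other arm, miR-122-3p, had 1635 counts in the miR-122 library and 0 in the empty vector library, which is at least 491-fold higher when a count of 0 is read as at most 3. All ratios below were scaled on the endogenous miRNAs, so that the induced miRNA did not enter the scale.

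Most endogenous miRNAs that were counted at all were counted in both lines. With 1 summed count or more required, detection covered 1048 endogenous miRNAs in the empty vector library and 1058 in the miR-122 library. Those counted in the empty vector library only numbered 166 and had at most 5 counts, while those counted in the miR-122 library only numbered 176 and had at most 7. None of the 514 kept miRNAs was at 0 in either library. Of the lists of miRNAs that mark other cell types, the blood list had miR-223-3p at 0 in both libraries and miR-451a at 4 and 10 counts. None of the 4 endogenous muscle markers and none of the 58 listed miRNAs of the 14q32 cluster passed the count minimum. The muscle marker miR-133a-3p, listed only as a synthetic hairpin and set aside, had 13 and 15 counts. Of the neuronal list, miR-128-3p had 12244 and 13722 counts and miR-9-5p 8030 and 8518. miR-9-3p (322 and 275, a log2 ratio of -0.38) and miR-138-5p (85 and 62, -0.60) were lower beyond counting error. Both were also lower in the miR-1 library, at 248 (-0.44) and 47 counts (-0.91). miR-124-3p, also listed only as a synthetic hairpin, had 18 and 12. Of the endothelial list, miR-126-3p had 5319 and 7533 counts (0.35) and miR-126-5p 329 and 284 (-0.36). Of the miRNAs known from kidney, miR-192-5p had 3634 and 4074 counts (0.01) and miR-204-5p 175 and 201 (0.05). miR-194-5p was lower at 1040 and 692 (-0.74), miR-215-5p was higher at 419 and 591 (0.34), and miR-194-3p had 12 and 23 (0.76), too few to tell from equality. The miR-1 library had 943 counts of miR-194-5p (-0.21 over the empty vector library) and 587 of miR-215-5p (0.42).

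The differences were small for most miRNAs. The median log2 ratio of miR-122 to empty vector over the 514 was -0.03, with 245 above 0 and 269 below, and their spread (the median absolute deviation scaled to match an SD) was 0.52. At least 2-fold higher counts in the miR-122 library were found for 19 miRNAs (3.7% of those kept) and at least 2-fold lower counts for 32 (6.23%). At a limit of 1.5-fold these numbers were 60 (11.7%) and 74 (14.4%). The 95% interval excluded equality for 242 of the 514, so about as many miRNAs differed by more than counting error as did not.

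**Figure D1:**
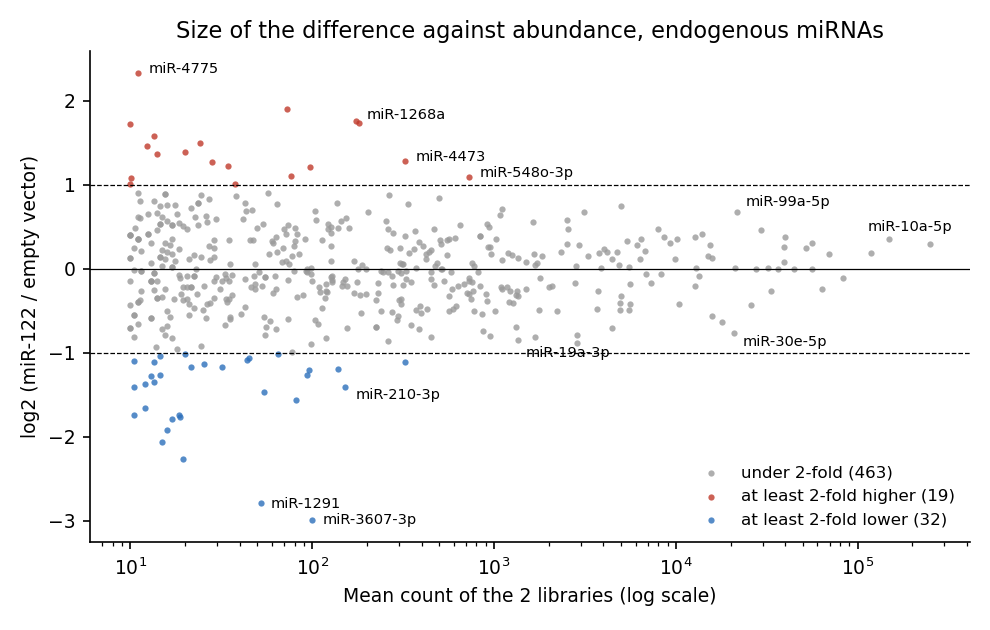
Each point is 1 of the 514 kept endogenous miRNAs, with the mean count of the 2 libraries on a log axis and the log2 ratio of miR-122 to empty vector on the vertical axis; dashed lines mark 2-fold. Past 2-fold lie 19 miRNAs above and 32 below, and none of them has a mean count of 1000 or more.

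Large ratios belonged to rare miRNAs. Among the 254 miRNAs averaging 10 to 100 counts the spread was 0.66 and 44 passed 2-fold, 15 higher and 29 lower. Some of these 44 met the count minimum only through the library where they were higher, which favours a large ratio. Among 153 averaging 100 to 1000 the spread was 0.45, with 4 higher and 3 lower. Of the 73 averaging 1000 to 10000 and the 34 above that, none passed 2-fold, and their spreads were 0.40 and 0.36. The intervals narrowed faster than the ratios did: their median width was 1.90 on the log2 scale in the rarest class and 0.05 in the most abundant, where they excluded equality for 27 of 34 miRNAs.

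The 10 most abundant endogenous miRNAs of the empty vector line differed by less than 1.5-fold. miR-10a-5p, encoded in the HOXB cluster, had 210754 counts in the empty vector library and 287733 in the miR-122 library, a log2 ratio of 0.30. miR-148a-3p had 122214 and 173708 counts (0.36), miR-92a-3p 104530 and 131541 (0.18), and miR-25-3p 47625 and 65232 (0.30). miR-21-5p, which lies in the VMP1 gene (chromosome 17, 57918627 to 57918698, GRCh37), differed by less than counting error at 52957 and 58598 counts, a log2 ratio of -0.01. miR-93-5p also stayed within counting error, at 42231 and 46741. Lower ratios were those of miR-7-5p (-0.11) and miR-20a-5p (-0.25), and higher ones those of miR-10b-5p (0.17) and miR-423-3p (0.24). As a share of endogenous counts, miR-10a-5p made up 12.9% in the empty vector line and 14.8% in the miR-122 line. Only 3 of the 34 miRNAs with a mean above 10000 passed 1.5-fold. These were miR-99a-5p (0.67), miR-30e-5p (-0.77) and miR-101-3p (-0.63), the last of which was named after its value was seen.

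Where the mean was 100 counts or more, the lowest ratio was that of miR-210-3p, the miRNA best known for its induction by hypoxia. It had 213 counts in the empty vector library, 89 in the miR-122 library and 206 in the miR-1 library, and was 2.65-fold lower in the miR-122 line (interval 2.07 to 3.44). Its gene lies in an intron of the noncoding MIR210HG (chromosome 11, 568089 to 568198, minus strand, GRCh37). The next was miR-33a-5p, which is encoded in an intron of SREBF2 (chromosome 22, 42296948 to 42297016, plus strand), the gene of a regulator of cholesterol synthesis, and represses the cholesterol exporter ABCA1. It had 186, 90 and 214 counts in the same order and was 2.29-fold lower (1.78 to 2.99). Both had like counts in the empty vector and miR-1 libraries and the lowest counts in the miR-122 library.

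The other arm of the same hairpin, miR-33a-3p, had 20 counts against 9, a log2 ratio of -1.26 (interval -2.62 to -0.10). miR-33b-5p, from the sister gene in SREBF1, had 13 and 8 counts, too few to tell from equality (-2.33 to 0.53). In the list of 13 kept miRNAs tied to cholesterol, lipid and oxygen supply, 4 were at least 1.5-fold lower and 0 higher, beside 14.4% and 11.7% of all kept miRNAs, with a median of -0.08. The abundant members had small ratios: miR-103a-3p 0.26, miR-378a-3p 0.00, miR-22-3p 0.05, miR-185-5p 0.23 and miR-107 -0.51. The 4 were miR-210-3p, both arms of miR-33a and, within counting error of equality, miR-33b-5p. Of these, miR-33a-3p and miR-33b-5p met the count minimum only through the empty vector library, which favours a low ratio.

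miR-590-3p had 429 and 221 counts, with 254 in the miR-1 library, so it was low in both lines that carried a hairpin. The remaining miRNAs at the low end were miR-18a-5p (-0.89), miR-424-5p (-0.86), miR-19a-3p (-0.85), miR-652-5p (-0.82), miR-374a-5p (-0.82), miR-15a-5p (-0.81) and miR-450a-5p (-0.80). Among them miR-18a-5p and miR-19a-3p come from the miR-17-92 cluster, miR-15a-5p and miR-424-5p share the seed of the miR-15/16 family, and miR-424 and miR-450a are neighbours on the X chromosome. Apart from miR-590-3p and miR-652-5p, which had 147, 92 and 89 counts, each of them had a count in the miR-1 library closer to that of the empty vector library.

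At the other end, miR-1268a had 73.5 counts in the empty vector library, 276.5 in the miR-122 library and 147.5 in the miR-1 library. Its ratio was 1.75 (interval 1.37 to 2.14). miR-1268b holds the whole of that sequence, as printed above, and had 76.5, 283.5 and 148.5 counts, so the pair shared reads and gives 1 observation and not 2. miR-4473, from an intron of MLLT3 on chromosome 9 (20411146 to 20411236, minus strand, GRCh37), had 175, 475 and 221 counts, a ratio of 1.29. miR-548o-3p, of a large primate-specific family, had 434.66, 1026.8 and 580 (1.09). The remaining miRNAs at the high end were miR-132-5p (0.88), miR-7706 (0.84), miR-1292-5p (0.78), miR-942-5p (0.77), miR-7974 (0.74) and miR-340-3p (0.71). Of these miR-7974 was the most abundant, with 3491 and 6497 counts. Over the 130 kept miRNAs numbered 1000 or more in their names, many of which are less well characterised, the median ratio was 0.14, against -0.07 for the other 384. Past 2-fold, 13 of the 130 were higher and 11 lower, and 6 of the 384 were higher and 21 lower, beside 3.7% and 6.23% of all kept miRNAs. The 130 were counted less precisely, with a median interval width of 1.81 on the log2 scale against 0.56 for the 384. The classes were not matched for abundance, and large ratios belonged to rare miRNAs.

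In the range of 10 to 100 counts, the highest ratios were those of miR-4775 (3 and 19 counts), miR-4664-3p (28 and 118), miR-3127-3p (4 and 16), miR-4742-3p (6 and 21) and miR-4659a-3p (11.5 and 37). miR-4775 and miR-4659a-3p had 20 and 36 counts in the miR-1 library, close to the miR-122 library. The miR-1 library was close to the empty vector for miR-3127-3p (4), miR-4742-3p (7) and miR-4664-3p (42). The lowest were miR-3607-3p, miR-1291, miR-19b-1-5p (32 and 7), miR-3609 (24 and 6) and miR-3611 (25 and 7). Of these extremes, miR-4775, miR-3127-3p and miR-4742-3p met the count minimum only through the miR-122 library. miR-19b-1-5p, miR-3609 and miR-3611 met it only through the empty vector library.

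miR-3607-3p and miR-1291 had the lowest ratios of all 514, and both hairpins lie within annotated snoRNA genes. snoRNAs guide the modification of ribosomal RNA, and fragments of several of them are listed as miRNAs. miR-3607-3p had 175 counts in the empty vector library, 24 in the miR-122 library and 177 in the miR-1 library, so it was 7.95-fold lower in the miR-122 line (interval 5.27 to 13.0). Its gene lies in COX7C on chromosome 5 (85916323 to 85916385, plus strand, GRCh37). miR-1291 had 90, 14 and 117 counts and was 6.93-fold lower (4.04 to 13.6). For both, the miR-122 library stood apart from the other two.

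In all, 7 kept miRNAs were counted from hairpins that overlap a snoRNA gene. Besides these, miR-1248 had 18, 6 and 16 counts in the empty vector, miR-122 and miR-1 libraries, and miR-3651 had 17, 7 and 31. The others lay nearer to equality: miR-664b-3p had 15, 11 and 9 counts, miR-664a-3p 149, 148 and 105, and miR-664a-5p 15, 19 and 12. The median ratio of the 7 was -1.37, with 4 at least 2-fold lower and 0 at least 2-fold higher, beside 6.23% lower and 3.7% higher over all kept miRNAs. This group was defined by annotation after the lowest ratios had been seen, and miR-1248 and miR-3651 met the count minimum only through the empty vector library. In the wider list of miRNAs that resemble snoRNAs, tRNAs, snRNAs or rRNAs, 13 were kept, and the extremes lay on both sides: 3 were at least 2-fold higher and 4 at least 2-fold lower. The higher ones were miR-1246 (54 and 140 counts, with 187 in the miR-1 library) and the pair miR-1268a and miR-1268b, which shared reads.

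Several families held mostly members below 0, where 52.3% of all kept miRNAs lay, and their abundant members decided the family's share of counts. In the miR-17 seed family, which is driven by MYC and represses cell cycle inhibitors, 6 of 6 kept members were below 0, with a median of -0.35. miR-20a-5p had 65565 and 61335 counts and miR-17-5p 28302 and 23212.5 (-0.44), while miR-93-5p was at equality. The family made up 8.74% of endogenous counts in the empty vector line and 7.05% in the miR-122 line. In the miR-30 family 4 of 5 were below 0, with a median of -0.27: miR-30e-5p had 25311 and 16505 counts (-0.77), miR-30a-5p 34674 and 32027 (-0.27), and miR-30d-5p 36114 and 42267 (0.08). Its share was 6.76% and 5.43%.

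In the let-7 family, repressors of proliferation genes such as HMGA2 and of LIN28, 3 of 9 members were above 0 and 6 below, with a median of -0.16. let-7a-5p had the highest ratio (32662.25 and 47224.99 counts, 0.38) and miR-98-5p the lowest (451 and 346, -0.53). Because of let-7a-5p the share of the family was 5.02% and 5.07%, although most of its members had lower ratios. let-7a-5p and let-7c-5p held fractional counts, from reads divided among similar sequences. In the miR-15/16 family, which restrains the cell cycle, 6 of 7 were below 0 with a median of -0.43. miR-503-5p (765 and 687 counts, -0.31) differs from the others in the last base of its seed, and of the 6 with the seed AGCAGCA 5 were below 0, with a median of -0.45. miR-16-5p had 6102 and 5046 counts (-0.43), whereas miR-15b-5p had 1556 and 1788 (0.05). None of these 4 families had a member past 2-fold. At 1.5-fold the miR-15/16 family had 2 of 7 members lower and the miR-30 family 1 of 5, beside 14.4% of all kept miRNAs. The medians for the miR-1 library over the empty vector library were -0.16 (miR-17 seed), -0.04 (miR-30), -0.17 (let-7) and -0.13 (miR-15/16).

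The miR-29 family, the miR-181 family and the family of miR-130, miR-301 and miR-454 had no kept member above 0, beside 52.3% of all kept miRNAs below 0. Each had 1 member at least 2-fold lower, of 3, 4 and 5 kept, beside 6.23% of all. In the miR-29 family, known repressors of collagens and DNA methyltransferases, miR-29a-3p had 1277 and 1182 counts, miR-29b-3p 338 and 254, and miR-29c-3p 128 and 59. Their ratios of -0.26, -0.56 and -1.26 were lower the rarer the member, and the interval of miR-29c-3p (-1.74 to -0.81) did not overlap those of the other members. The median was -0.56. miR-29a-3p and miR-29c-3p, as printed above, differ at 1 position. In the miR-181 family, with a role in lymphocyte development, miR-181a-5p (-0.26), miR-181b-5p (-0.17) and miR-181d-5p (-0.22) were alike and miR-181c-5p, with 129 and 62 counts, was lower (-1.20). The median was -0.24. In the family of miR-130, miR-301 and miR-454 the ratios ran from -0.03 for miR-130a-3p to -1.47 for miR-301a-3p (78 and 31 counts, with 95 in the miR-1 library), with a median of -0.47. For the miR-1 library over the empty vector library the medians were -0.37 (miR-29), -0.36 (miR-181) and 0.09 (miR-130, miR-301 and miR-454). In that comparison miR-181c-5p and miR-181d-5p were both at -0.57, so lower miR-181 ratios were not particular to the miR-122 line.

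The family of miR-148 and miR-152, repressors of DNMT1, was divided. miR-148a-3p had 122214 and 173708 counts and a ratio of 0.36, while miR-148b-3p (11383 and 9452, -0.42) and miR-152-3p (866 and 678, -0.50) lay below 0. miR-148a-3p and miR-148b-3p differ at 2 positions, and their intervals were far apart. Since miR-148a-3p held most of the counts, the share of the family was higher in the miR-122 line (9.45% against 8.22%) although its median was -0.42.

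Higher ratios across a family were found for miR-99/100, known to target MTOR, where 3 of 3 were above 0 with a median of 0.59. miR-99a-5p had 15622 counts in the empty vector library, 27657 in the miR-122 library and 15942 in the miR-1 library (0.67). miR-99b-5p had 14326, 17416 and 18011 (0.13), and miR-100-5p 31, 52 and 33, too few to tell from equality. The gene of miR-99a lies beside that of let-7c in an intron of MIR99AHG on chromosome 21 (17911409 to 17911489, plus strand, GRCh37), and let-7c-5p had 1641.75 and 2023 counts (0.15). The 5 miRNAs with the seed AUUGCAC were also all above 0 and close together, from 0.15 for miR-363-3p to 0.30 for miR-25-3p. The 2 members of the miR-125 family were at 0.28 and 0.18. In the cluster of miR-183, miR-96 and miR-182, known from sensory organs, miR-183-5p had 11203 and 16502 counts (0.41), miR-182-5p 13145 and 17730 (0.28) and miR-96-5p 1899 and 3155 (0.58). Of its 5 kept arms 4 were above 0, with a median of 0.41.

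**Figure D2:**
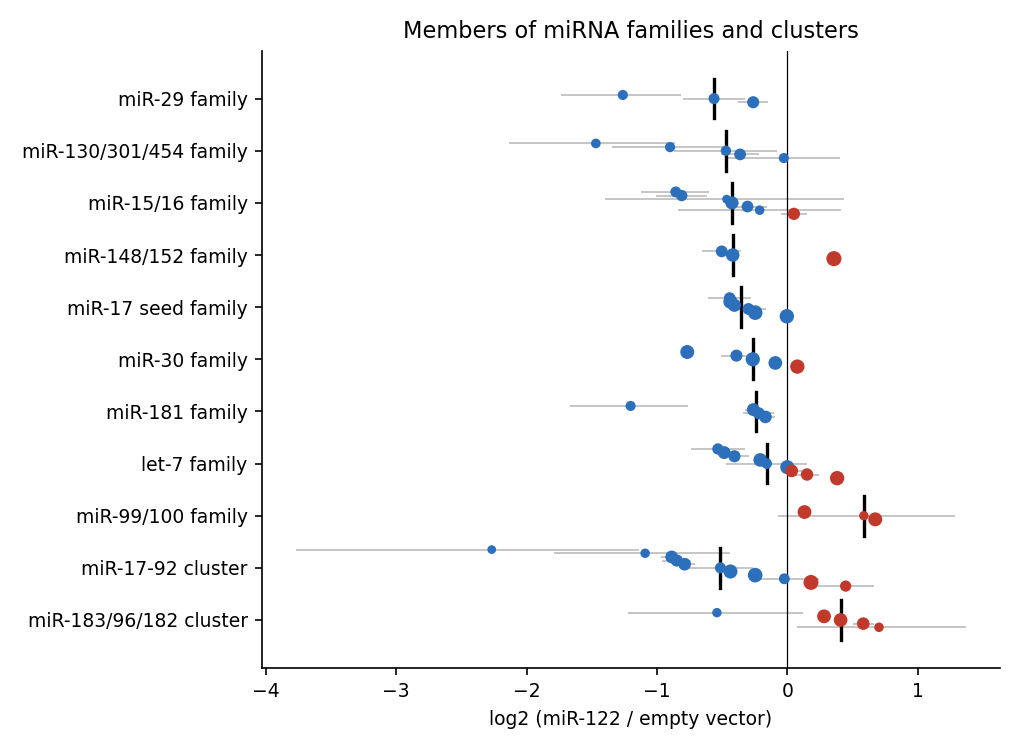
Each dot is a kept member of the family or cluster named on the left, placed at its log2 ratio of miR-122 to empty vector (red above 0, blue below, larger for a higher mean count), with its 95% counting interval in grey and the group's median as a black bar. The families of miR-29, of miR-130, miR-301 and miR-454, of the miR-17 seed and of miR-181 have no member above 0 and the miR-99/100 family has none below. The miR-148 and miR-152 family and the miR-17-92 cluster lie on both sides.

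Members of 1 cluster, which are cut from a common transcript, had unlike ratios. The miR-17-92 cluster is the best example, with 11 kept arms. miR-18a-5p had 3552.5 counts in the empty vector library, 2132 in the miR-122 library and 3852.5 in the miR-1 library. miR-19a-3p had 1669, 1029 and 1844, and miR-19b-3p, which is counted from more than 1 hairpin, had 3462, 2226 and 3486. These 3 arms had ratios of -0.89, -0.85 and -0.79, lay lowest in the miR-122 library, and had like counts in the other two. miR-92a-3p, from the 3′ end of the same cluster and also from a second locus on the X chromosome, lay above 0 at 0.18. miR-92a-1-5p, which only the first locus makes, had 292, 442 and 323 counts and a ratio of 0.45 (interval 0.23 to 0.67). The median of the 11 arms was -0.51, with 2 above 0 and 9 below, 5 of them at least 1.5-fold lower against 14.4% of all kept miRNAs. Of these 5, miR-19b-1-5p (32 and 7 counts) met the count minimum only through the empty vector library.

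**Figure D3:**
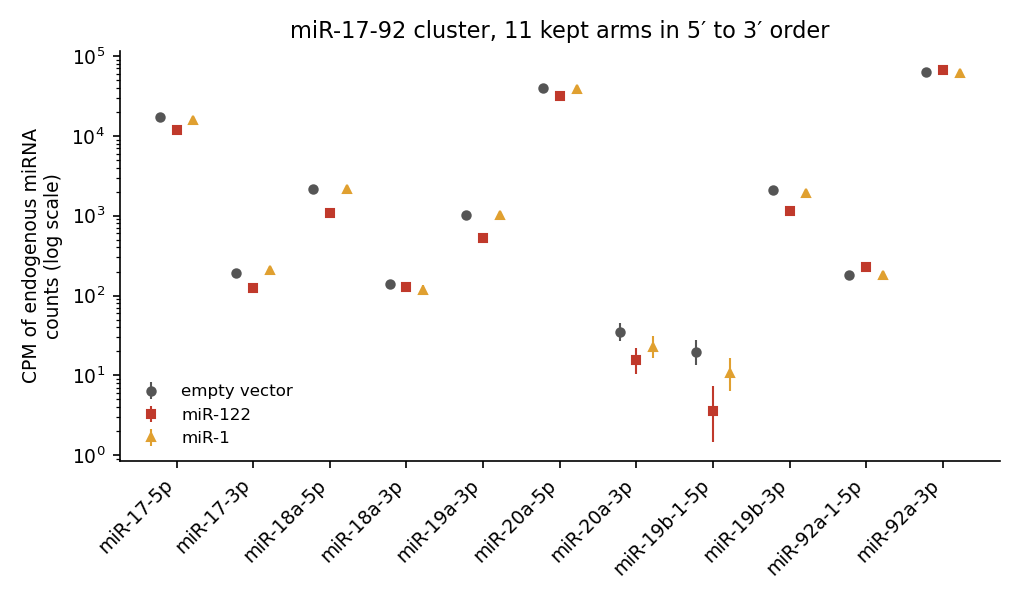
The log axis gives CPM on the total of endogenous miRNA counts for 11 arms of the miR-17-92 cluster in their order along the transcript, in the empty vector, miR-122 and miR-1 libraries, with exact 95% Poisson intervals that are often smaller than the symbol. The miR-122 library lies below both others for miR-18a-5p, miR-19a-3p and miR-19b-3p and above them for miR-92a-1-5p.

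The paralogous miR-106b-25 cluster, within MCM7 on chromosome 7, also had unlike ratios, with 3 of its 6 kept arms above 0. miR-106b-5p was at -0.41 and miR-106b-3p at 0.12. miR-93-5p was at equality and miR-93-3p at -0.12, while miR-25-3p was at 0.30 and miR-25-5p at 0.64. In the miR-106a-363 cluster on the X chromosome, miR-106a-5p (-0.44), miR-20b-5p (-0.30) and miR-18b-5p (28.5 and 9 counts, -1.76) lay below 0 and miR-363-3p above (0.15). miR-18b-5p (interval -3.06 to -0.66) met the count minimum only through the empty vector library. For the miR-1 library over the empty vector library these arms were at -0.46, -0.48, -0.60 and -0.40, in the same order. miR-106a, miR-18b and miR-17, miR-18a differ by so few bases that fractions of reads were shared between them. Other clusters ranged from wide to narrow. The arms of miR-193b and miR-365a spanned 2.06 on the log2 scale, but the highest, miR-193b-5p, had only 7 and 21 counts (interval 0.15 to 2.91). The arms of miR-29b-2 and miR-29c spanned 1.41, those of miR-181c and miR-181d 1.38, and those of miR-130b and miR-301b 1.37. The miR-15a/16-1 pair spanned 0.20 on the log2 scale, with arms at -0.81 and -0.61, and the miR-374b/421 pair spanned 0.20 with 3 of 3 arms below 0. The cluster of miR-221 and miR-222 spanned 1.10, with miR-221-3p at 0.30, miR-222-3p at 0.21, miR-221-5p at 0.39 and the rare miR-222-5p at -0.71 from 12 and 8 counts. In the 12 kept arms of the cluster within CLCN5 the ratios ran from -0.43 for miR-362-5p to 0.49 for miR-500a-3p, with 7 above 0 and 5 below.

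Some lists group miRNAs by how they are made or controlled. Of 12 kept miRNAs that bypass Drosha or Dicer, 2 were at least 1.5-fold higher and 0 lower, beside 11.7% and 14.4% of all kept miRNAs, and the abundant miR-320a (0.37), miR-484 (-0.19) and miR-877-5p (0.01) lay on both sides of 0. Of 5 kept miRNAs that respond to the tumour suppressor p53, miR-34a-5p had 739 and 673 counts (-0.29) and miR-34c-5p 242 and 207 (-0.38), and miR-194-5p, at least 1.5-fold lower, was the 1 of the 5 past that limit. The other members were miR-192-5p (0.01) and miR-215-5p (0.34), both from the kidney list. Among 9 kept arms of the miR-23, miR-27 and miR-24 clusters none passed 1.5-fold, and the most abundant, miR-27b-3p, had 19896.5 and 22231.5 counts (0.01).

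The miRNAs of the HOX clusters differed between genes and between arms. miR-10a-5p and miR-10b-5p were above 0, while miR-10a-3p (2109 and 2033 counts, -0.20) and miR-10b-3p (337 and 245, -0.61) were below. miR-196a-5p had 8969 and 10818 counts (0.12), and miR-196a-3p had 118 and 44, with 103 in the miR-1 library (-1.56, interval -2.11 to -1.06). miR-615-3p had 7327 and 7224 counts (-0.17) and miR-196b-5p 6671 and 7064 (-0.07), both lower beyond counting error. miR-196b-3p had 29 and 24. The list as a whole made up 18.2% of endogenous counts in the empty vector line and 20.2% in the miR-122 line.

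Unlike arms were common. Both arms passed the count minimum for 124 hairpins, and in 60 of them (48.4%) the ratios of the arms lay on the same side of 0. Pearson's r between the arms was 0.09, a value given as a description, since all hairpins come from the same 2 libraries. Among the 49 hairpins whose arms each averaged 100 counts or more, 21 were on the same side and r was -0.13. In 34 of these 49 the intervals of the arms did not overlap. The median difference between arms was 0.45 on the log2 scale, and 5 hairpins differed by 2-fold or more.

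These 5 had opposite signs in their arms. For miR-365a, the 5p arm had 74 and 133 counts and the 3p arm 266 and 182.5, a difference of 1.38 on the log2 scale. The 3p arm has the same sequence as miR-365b-3p, so its reads were divided with another hairpin. For miR-424, the 5p arm had 323 and 198 and the 3p arm 370 and 569 (-1.32). For miR-340, the 5p arm had 18096 and 13632 and the 3p arm 783 and 1423 (-1.27), so the 5p arm held 95.9% of the counts of both arms in the empty vector line and 90.5% in the miR-122 line. For miR-132, which is induced by neuronal activity, the 5p arm had 174 and 355 and the 3p arm 319 and 309 (1.07). For miR-576, the 5p arm had 210 and 161 and the 3p arm 205 and 317 (-1.01). In miR-132 and miR-576, and also in miR-106b, the more abundant arm was not the same in both lines: the 5p arm made up 35.3% and 53.5% in miR-132, 50.6% and 33.7% in miR-576, and 57.1% and 48.0% in miR-106b. The majority was narrow for miR-576 in the empty vector library (210 and 205 counts) and for miR-132 in the miR-122 library (355 and 309). No interval was computed for these shares, so a change of the more abundant arm is not shown for miR-576 and miR-132.

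**Figure D4:**
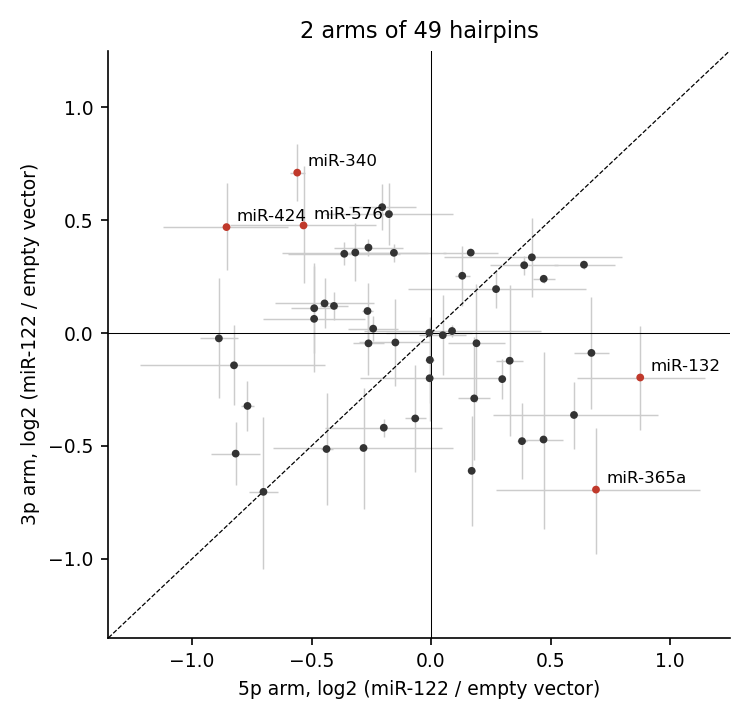
Each point is 1 of 49 hairpins whose arms both average 100 counts or more, with the log2 ratio of miR-122 to empty vector of the 5p arm across and of the 3p arm up, and 95% counting intervals in grey; the dashed line marks equal ratios. The points do not follow the line, and the 5 in red differ by 2-fold or more between arms.

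The base composition of the mature sequence moved with the ratio. Over the 452 miRNAs with a sequence, Pearson's r between the percentage of G and C and the log2 ratio was 0.17. It was 0.35 for the 233 averaging 100 counts or more and 0.36 for the 96 averaging 1000 or more. For the percentage of A alone the values were -0.20, -0.32 and -0.38. These are descriptions across miRNAs of the same 2 libraries. The 51 miRNAs with less than 35% G and C had a median of -0.38, and 38 of them were below 0. The other classes lay near equality, at -0.09 for 35% to 45%, 0.05 for 45% to 55%, 0.03 for 55% to 65% and 0.06 for 65% or more.

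In abundant miRNAs the medians were higher from class to class. Where the mean was 1000 counts or more, the medians were -0.50, 0.03, 0.05, 0.13 and 0.30, from 11, 29, 39, 12 and 5 miRNAs. The 11 poorest in G and C included miR-19a-3p, miR-340-5p and miR-7-5p, and miR-32-5p was the 1 of them above 0. For the miR-1 library over the empty vector library, r with G and C was -0.01 over all 452 and 0.14 for the 96 abundant miRNAs. For the miR-122 library over the miR-1 library it was 0.20 and 0.33. Among the 38 hairpins with well counted arms (means of 100 or more) of unequal G and C, the arm richer in G and C had the higher ratio in 25. miR-340, miR-424 and miR-365a did so, while miR-132 did not. Some of the families and arms described above thus differed in composition as well, and others did not. miR-148a-3p and miR-148b-3p, with unlike ratios, both hold 40.9% G and C, and the 2 arms of miR-576 both hold 31.8%. The part of composition in the ratios was not tested.

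**Figure D5:**
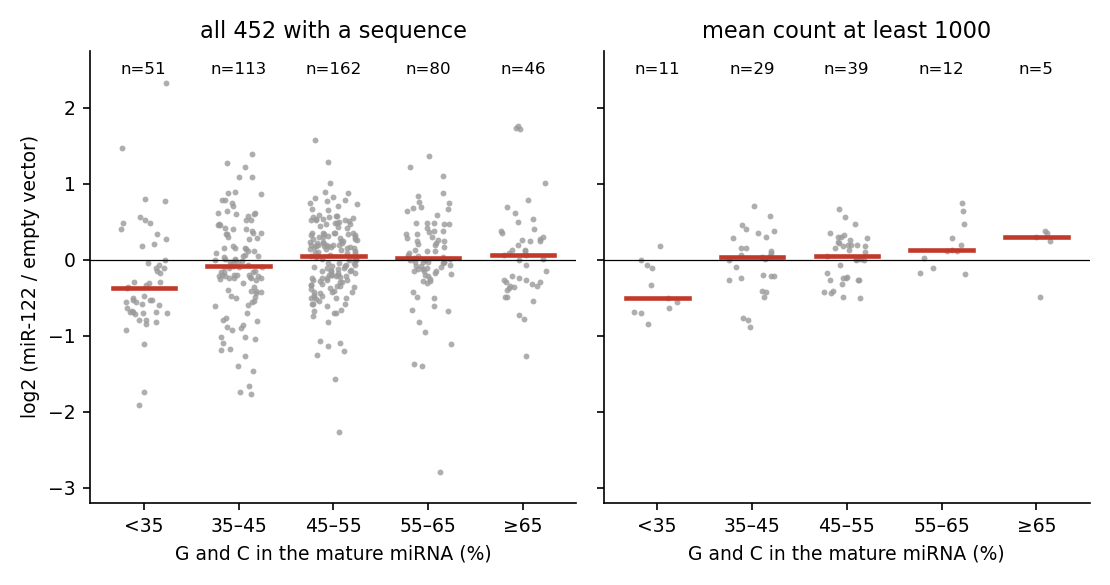
Each grey point is a miRNA placed by the percentage of G and C in its mature sequence (5 classes) and its log2 ratio of miR-122 to empty vector, with the median of each class in red, for all 452 with a sequence (left) and for those averaging 1000 counts or more (right). The median is lowest below 35% in both panels, at -0.38 and -0.50.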

How the data were processed

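The deposited estimated counts per mature miRNA and hairpin were made by the authors with miRDeep2, against the hairpins of miRBase release 21 and their synthetic hairpins, from reads of at least 18 nt. A read that fitted several hairpins was divided among them, so 257 of 2817 rows held fractions in the 2 libraries, and no genome was used. The RPM values and the pooled total in the same table were not used. Counts were summed by mature name and rounded only for intervals. The 2 libraries were scaled by TMM on the kept miRNAs (edgeR 4.0.16, R 4.3.3). Log2 ratios used a pseudocount of 0.5. Intervals of ratios are exact binomial intervals given the scaled sizes, and were tested on simulated data. Intervals of shares are Wilson intervals. Both are at 95%. Where no read was counted, up to 3 were allowed for. Total counts were 1636834 (empty vector), 2577292 (miR-122) and 2892684 (miR-1). With 1 library per group no test between the lines was made.

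miRNAs were named by rule: both arms of miR-122, the 10 most abundant, the 10 highest and 10 lowest ratios at a mean of at least 100, the 5 highest and 5 lowest at 10 to 100, up to 6 members of each list described, and the 5 hairpins with the most unlike arms. Members outside the rule serve as examples. The members and lists were chosen with earlier results of these data known. Gene positions are from GENCODE 44 lifted to GRCh37, and clusters are hairpins within 10000 bases on 1 strand in RefSeq. Alternatives changed the scaling, filter, pseudocount, hairpin rule, shared reads, fold limit and spread measure.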

Additional observations from a re-analysis of the deposited data

Results flagged for a closer look

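Besides the induced miR-122 arms, 3 of the sequences set aside from the comparison lay above their level in the empty vector library by more than counting error. miR-3591-5p had 1756 counts in the miR-122 library, 1 in the empty vector library and 0 in the miR-1 library, a ratio of 1581 with a counting interval of 283 to 62491. miR-3591-3p had 25 counts in the miR-122 library and 0 in both others, which is at least 7.5-fold higher when a count of 0 is read as at most 3. miR-3591 is annotated on the opposite strand to miR-122, and in the RefSeq sequences miR-3591-5p shares a run of 20 of its 23 bases with the reverse complement of miR-122-3p, and miR-3591-3p a run of 21 of its 22 bases with that of miR-122-5p. The synthetic miR-1-3p had 369 counts in the miR-122 library and 166 in the empty vector library, a log2 ratio of 1.00 (interval 0.73 to 1.27), beside 1100840 in the miR-1 library. Both arms of a further synthetic entry, i-2.2, went the other way by more than counting error. They had 120 (5p) and 7 (3p) counts in the empty vector library and 0 in both others. The origin of these counts was not tested.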

How the results depend on the processing

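No paired analysis was possible because the empty vector and miR-122 lines gave 1 library each. The median of all ratios shifted by -0.50 under scaling on the total with the induced miRNAs and by -0.10 under the endogenous total, with 84.6% and 59.7% of ratios below 0 against 52.3%. A scaling adds the same constant to every ratio, so relative to the median of all miRNAs every scaling gives the same order. Under the total with the induced miRNAs, 6 miRNAs were at least 2-fold higher and 95 lower, 85.5% of hairpins had both arms on one side, and the medians were -0.66 (let-7), -0.86 (miR-17 seed), -1.02 (miR-17-92), -0.93 (miR-15/16), -0.77 (miR-30), -0.74 (miR-181), -1.07 (miR-29), -0.98 (miR-130, miR-301 and miR-454), -0.92 (miR-148 and miR-152), 0.082 (miR-99/100) and -0.096 (miR-183, miR-96 and miR-182). Under the endogenous total they were -0.26 (let-7), -0.45 (miR-17 seed), -0.36 (miR-30), -0.34 (miR-181) and -0.52 (miR-148 and miR-152), and under DESeq2 size factors miR-30 was -0.24. With means of 100 or more, 4 were higher and 3 lower, and with means of 1 or more, 132 and 136. A 1.5-fold limit gave 60 and 74. A pseudocount of 5 gave 21 lower. The spread was 0.42 for means of 100 or more, 0.79 for means of 1 or more, 0.47 with a pseudocount of 5, and 0.62 as SD. With the 7 entries in snoRNA genes left out, a choice made after seeing the data, 19 miRNAs were at least 2-fold higher and 28 lower. The correlation with G and C, also at limits chosen after seeing the data, was 0.35 for means of 100 or more and 0.36 for means of 1000 or more. No ratio called 2-fold changed sign among 40 named miRNAs, and under scaling none could, since the largest shift was -0.50. That shift put smaller positive ratios, such as the 0.30 of miR-10a-5p, below 0. Of 200 alternatives for the 40 miRNAs, 52 moved the ratio out of its counting interval. Counts of 10 to 100 limit single ratios to intervals with a median width of 1.90.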
